A study of Mus musculus with 14 samples.

Results

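The 37 genes described here cover sterol synthesis, its control, cholesterol transport and fatty acid synthesis, out of 41381 genes in the deposited expression table. They were taken from a named list and matched to the table by Ensembl identifier, and all 37 were found. They fall into 5 roles. The mevalonate and isoprenoid steps held 7 genes (Acat2, Hmgcs1, Mvk, Pmvk, Mvd, Idi1 and Fdps). The steps from squalene to cholesterol held 11 (Fdft1, Sqle, Lss, Cyp51, Tm7sf2, Msmo1, Nsdhl, Hsd17b7, Ebp, Sc5d and Dhcr7). The regulators of the sterol regulatory element binding proteins (SREBPs) held 5 (Srebf1, Srebf2, Insig1, Insig2 and Scap). Uptake, transport and export held 6 (Mylip, Stard4, Npc1, Npc2, Abca1 and Abcg1), and fatty acid synthesis held 8 (Fads1, Fads2, Scd1, Scd2, Fasn, Acaca, Acly and Elovl6).

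Total RNA was sequenced from granule neuron progenitors (GNPs), the dividing precursors of cerebellar granule cells, purified on a Percoll gradient from mouse cerebella at postnatal day 7. Chd7, an ATP-dependent chromatin remodeller, carried floxed alleles that were deleted by Atoh1-Cre. This driver acts in Atoh1-positive cells, which give rise to excitatory neurons such as granule cells. Cells of other lineages left in the preparation may have kept their Chd7, and the study states that Purkinje cells are not targeted. It also reported Chd7 protein remaining in the posterior lobe of mutants, probably from less efficient recombination. There were 5 libraries labelled WT (wild type, or Atoh1-Cre negative), 5 labelled Het (het mutant, or Atoh1-Cre::Chd7 f/+) and 4 labelled Hom (hom mutant, or Atoh1-Cre::Chd7 f/f), and the strain was given as C56Bl6/J or C57BL/6. The libraries were sequenced in 2 batches, with WT 1 to 3, Het 1 to 3, Hom 1 and Hom 2 in batch 1 (8 libraries) and the other 6 in batch 2. No label says that the libraries came from separate animals, so p-values measure only the spread between these libraries.

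Levels are given in TPM, the number of transcripts scaled for transcript length and to a fixed total in each library, so that levels of different genes can be compared. Changes are log2 differences of TPM + 1 between genotypes with the batch as a term, estimated with limma over the 17325 genes that reached 1 TPM in at least 4 libraries, and all 37 genes of interest passed this filter. A gene is said to have changed, risen or fallen only where its p-value, adjusted by the Benjamini-Hochberg method over all 17325 genes, was under 0.05.

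Cells make cholesterol from acetyl-CoA through mevalonate, isoprenoids and squalene. SREBP-2, encoded by Srebf2, activates the genes of this route, and SREBP-1, encoded by Srebf1, mainly those of fatty acid synthesis. Scap escorts both proteins out of the endoplasmic reticulum when sterols are scarce, and Insig1 and Insig2 hold Scap back when sterols are plentiful. Abca1 and Abcg1 export cholesterol and are targets of the liver X receptors, which sense oxidised sterols. In the developing brain most cholesterol is made locally, and dividing and growing neural cells need it for membranes and for Hedgehog signalling, the pathway that drives GNPs to divide.

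SREBPs bind sterol regulatory elements in promoters together with the CCAAT-binding factor NF-Y, so the upstream sequences of the genes that fell in Hom are shown for their matches to these motifs. RefSeq windows on GRCm38.p6 were held for 28 of the 37 genes, each covering 250 bases before and 50 after a transcription start. Among 32851 windows of all genes, the letters TCACNCCAC were found on either strand in 1.24%, and among the 36 windows of the 28 genes in 1, that of Hmgcs1. The letters CCAAT were found on either strand in 37.4% of all windows and in 63.9% of the 36, which left 22 of the 28 genes with at least 1 match. A match describes these letters only. The 250 bases before the start of Hmgcs1 (chr13:119690101-119690350, plus strand), Msmo1 (chr8:64733579-64733828, minus strand) and Insig1 (chr5:28071162-28071411, plus strand) are printed 5′ to 3′ along the gene, with motif matches in capitals. Msmo1 and Insig1 hold no match to TCACNCCAC and are shown for comparison, and Fdps is named only. The starts used here are those of RefSeq transcripts. By the GENCODE gene spans given below, most of the Msmo1 stretch and the end of the Insig1 stretch lie inside the gene.
Hmgcs1: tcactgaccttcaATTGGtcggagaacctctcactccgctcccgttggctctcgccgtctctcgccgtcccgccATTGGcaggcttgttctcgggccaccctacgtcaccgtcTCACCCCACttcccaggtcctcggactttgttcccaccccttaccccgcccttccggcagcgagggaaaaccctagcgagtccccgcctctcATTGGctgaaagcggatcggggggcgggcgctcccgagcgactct
Msmo1: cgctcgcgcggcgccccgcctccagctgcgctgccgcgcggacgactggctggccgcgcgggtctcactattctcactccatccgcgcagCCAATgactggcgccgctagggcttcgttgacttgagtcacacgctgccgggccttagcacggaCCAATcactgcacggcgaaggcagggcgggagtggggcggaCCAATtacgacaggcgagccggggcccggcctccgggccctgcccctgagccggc
Insig1: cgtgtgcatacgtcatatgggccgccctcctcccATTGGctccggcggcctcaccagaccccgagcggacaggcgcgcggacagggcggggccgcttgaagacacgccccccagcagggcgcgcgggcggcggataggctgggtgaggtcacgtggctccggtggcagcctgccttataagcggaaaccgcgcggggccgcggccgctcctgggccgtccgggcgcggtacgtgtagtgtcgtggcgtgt
In Hmgcs1 the match to TCACNCCAC begins 137 bases before the start, and CCAAT on the opposite strand, read as ATTGG, begins 237, 176 and 45 bases before it. In Msmo1 CCAAT begins 160, 96 and 55 bases before the start, and in Insig1 ATTGG begins 216 bases before it. No motif match overlaps another in these windows.

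Chd7 itself did not follow the labels evenly. Its TPM, which covers all exons and not only the deleted part, was 121 to 272 in WT, 137 to 181 in Het and 126 to 185 in Hom. In batch 1 the Hom mean of 179 TPM was above the WT mean of 135 TPM. In batch 2 the Hom mean of 138 TPM was below the WT mean of 238 TPM. The study itself reported less Chd7 transcript in Het and Hom GNPs than in WT by quantitative RT-PCR. WT, Het and Hom therefore name libraries by their label throughout, and every direction below rests on those labels. The GNP markers Atoh1 (30.0 TPM in WT, 29.8 in Hom) and Mki67 (273 in WT, 290.1 in Hom) were present, and 0 of the 6 GNP markers changed, with 2 higher at an unadjusted p under 0.05. Markers of other cell types varied widely between libraries. The summed level of 9 astroglial markers was 445 to 1923 TPM in WT, 638 to 1206 in Het and 378 to 767 in Hom, and 8 of the 9 were below WT in Hom with a median log2 change of -0.81. The summed level of 5 endothelial markers was 18.2 to 172 TPM in WT, 11.7 to 371 in Het and 83.8 to 268 in Hom, and all 5 were above WT with a median of 1.48. None of these 14 markers passed the test, although 5 astroglial markers were lower and 4 endothelial markers higher at an unadjusted p under 0.05, and none was at 0 in any library. The 4 Purkinje cell markers tested were all below WT in Hom, with a median of -1.04, 1 of them at an unadjusted p under 0.05 and 0 past the test. The summed level of the 5 listed was 61.5 to 88.3 TPM in WT 1 to 3 and 12.8 and 16.5 TPM in WT 5 and WT 4, beside 13.9 to 45.7 TPM in Het and 14.8 to 28.7 TPM in Hom, and Pcp2 was at 0 in Het 5. Markers of oligodendroglia, inhibitory interneurons, microglia and meninges had medians between 0.00 and 0.20 with both batches fitted together. Of these markers 0 passed the test, with 1 higher at an unadjusted p under 0.05. For oligodendroglia and microglia these medians hide values of opposite sign in the batches, given below. Of the granule neuron markers Slc17a7 (-0.71) and Tubb3 (-0.38) fell and Grin2c (1.51) rose in Hom. Of the 5 listed 4 were tested, and 3 were lower at an unadjusted p under 0.05, with a median of -0.42. In each batch alone 3 passed the filter and all 3 were below WT. Grin2c reached 1 TPM in fewer than 4 libraries of either batch, so its level was near the filter and its rise was not tested within a batch. The summed level of the 5 was 722 to 1004 TPM in WT, 713 to 904 in Het and 525 to 820 in Hom. In such bulk samples fewer cells of a type and less RNA per cell cannot be told apart.

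In Hom against WT, 4 of the 37 genes fell and 0 rose. The 4 were Hmgcs1, Fdps, Msmo1 and Insig1, which encode HMG-CoA synthase, farnesyl diphosphate synthase, a methylsterol oxidase and an inhibitor of SREBP activation. Of all genes tested 1.41% fell and 1.27% rose, whereas 10.8% of the 37 fell. At an unadjusted p under 0.05, 14 of the 37 were lower, against 6.42% of all genes, and 3 were higher, against 8.51% of all genes. The median log2 change of the 37 was -0.15, beside 0.02 over all genes tested. The lower values lay mainly in the sterol synthesis enzymes. Of these 18 genes, 16 were below WT and 11 were lower at an unadjusted p under 0.05, with a median log2 change of -0.27. Of all 17325 genes tested, 7707 were below WT. With all 18 added up, WT libraries held 1566, 1559.6, 1577, 1287 and 1557 TPM, Het libraries 1415, 1347, 1543, 1318 and 1335 TPM, and Hom libraries 1198, 1062, 1336 and 1172 TPM. WT 4 was the lowest WT library and lay below Hom 3, the highest Hom library, so the summed levels of Hom and WT overlapped. Without Hom 2, in which the enzymes were lowest, the median change of the 18 was -0.19, the weakest value when any 1 of the 14 libraries was left out.

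**Figure D1:**
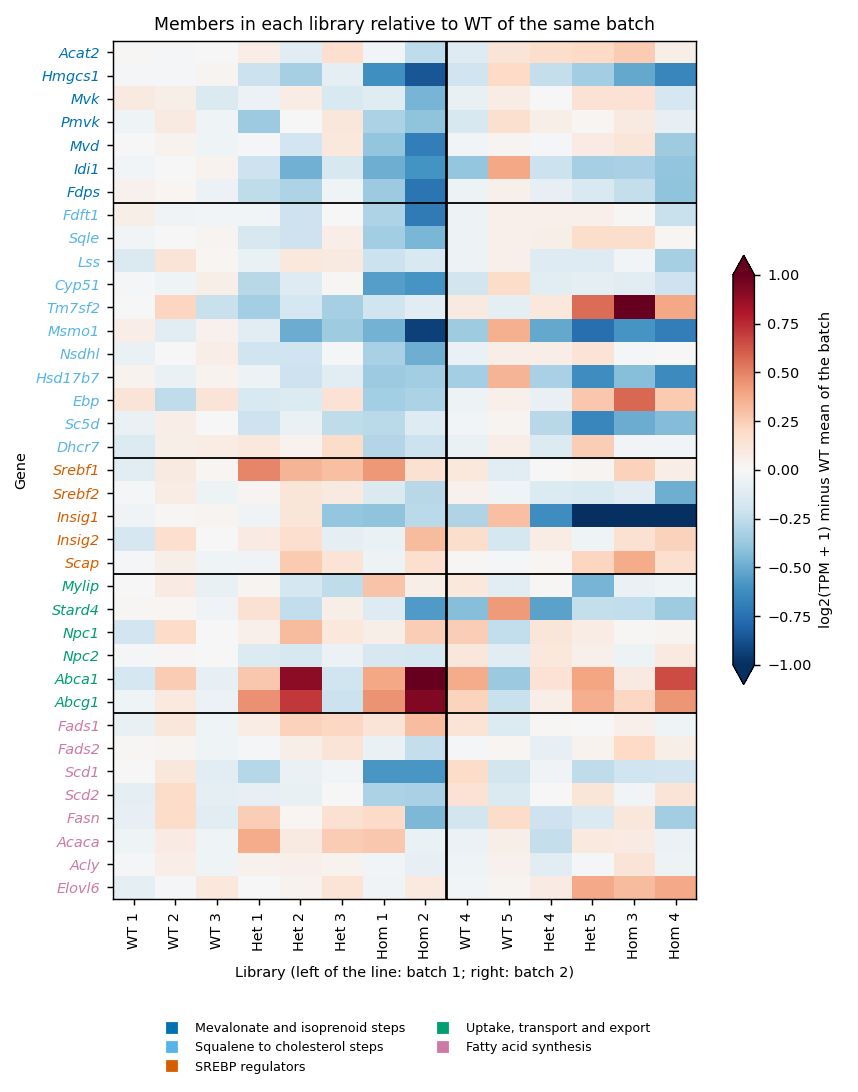
Log2(TPM + 1) of each of the 37 genes (rows, by role) in each of the 14 libraries (columns) minus the mean of the WT libraries of the same batch. Blue is lower and red is higher, and colours are capped at a difference of 1. Hom 1 and Hom 2 were below the WT mean for all 18 sterol enzymes, Hom 4 for 14 and Hom 3 for 10.

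The enzymes of the mevalonate and isoprenoid steps were all 7 below WT in Hom, with a median log2 change of -0.35. Hmgcs1 (ENSMUSG00000093930, GRCm38 chr13:119690379-119708260, plus strand) encodes the cytosolic HMG-CoA synthase. Its level was 309, 308, 317, 223 and 292 TPM in the WT libraries, 269, 247, 293, 216 and 200.2 TPM in the Het libraries, and 203, 172, 179 and 162 TPM in the Hom libraries. Every Hom library was below every WT library, and the Het libraries lay between or overlapped with both. Hmgcs1 fell by 0.66 on the log2 scale (SE 0.09, adjusted p = 0.000824), from a mean of 289.9 ± 38.6 TPM (SD, n = 5) in WT to 179 ± 17.6 TPM (SD, n = 4) in Hom. It was past the threshold in each of the 14 fits that left out 1 library, with adjusted p-values of at most 0.00429.

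Fdps (ENSMUSG00000059743, GRCm38 chr3:89093588-89101959, minus strand) encodes farnesyl diphosphate synthase, whose product feeds sterols and protein prenylation. Its level was 139, 137, 130, 139 and 150.0 TPM in WT, 113, 109, 131, 136 and 130.2 TPM in Het, and 105, 80.9, 122 and 109 TPM in Hom. All 4 Hom libraries were below all 5 WT libraries, the closest being Hom 3 and WT 3. Fdps fell by 0.44 (SE 0.08, adjusted p = 0.0115) and remained past the threshold in all 14 fits that left out 1 library. With the mean endothelial and astroglial marker levels as covariates, an alternative added after the values were seen, the change was -0.31 with an adjusted p of 0.0572, and with only the WT and Hom libraries in the fit the adjusted p was 0.0504.

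The other 5 enzymes of these steps did not pass the test. Idi1, the isopentenyl diphosphate isomerase, was at 94.0 ± 18.3 TPM in WT and 65.8 ± 4.44 TPM in Hom, a log2 change of -0.46 (adjusted p = 0.0727). Mvd, the mevalonate diphosphate decarboxylase, changed by -0.35 (adjusted p = 0.147), and both were lower at an unadjusted p under 0.05. Mvk, the mevalonate kinase, and Pmvk, the phosphomevalonate kinase, were at -0.17 and -0.19. Acat2, the cytosolic thiolase at the start of the route, was at -0.01 (SE 0.08).

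**Figure D2:**
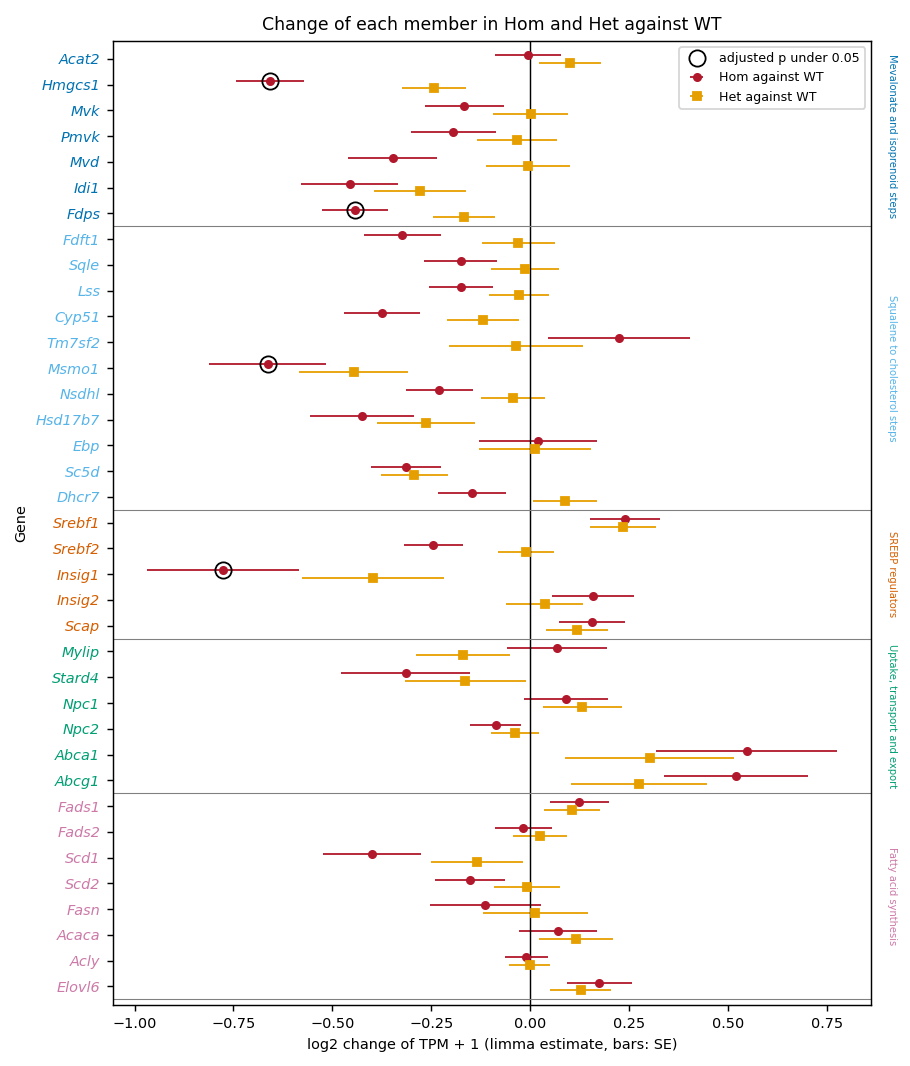
Log2 change of each of the 37 genes in Hom against WT (circles) and Het against WT (squares), with bars of 1 SE from limma, ordered by role. A ring marks an adjusted p under 0.05, which Hmgcs1, Fdps, Msmo1 and Insig1 reached in Hom and no gene reached in Het.

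From squalene to cholesterol, 9 of 11 enzymes were below WT in Hom, 1 fell and 7 were lower at an unadjusted p under 0.05, with a median log2 change of -0.23. Msmo1 (ENSMUSG00000031604, GRCm38 chr8:64718139-64733792, minus strand) encodes the methylsterol monooxygenase that starts removal of the methyl groups at carbon 4. Its level was 96.6, 85.2, 94.6, 71.2 and 117 TPM in WT, 85.3, 64.8, 71.7, 63.6 and 53.8 TPM in Het, and 66.1, 47.6, 60.2 and 56.1 TPM in Hom. All Hom libraries were below the lowest WT library, WT 4, and 3 of the 5 Het libraries were too. Msmo1 fell by 0.66 (SE 0.15, adjusted p = 0.0285). It passed in 8 of the 14 fits that left out 1 library. It missed the threshold when Hom 1, 2 or 4 or WT 1, 3 or 5 was left out, with adjusted p-values of up to 0.0978.

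The remaining enzymes of these steps did not pass the test. Cyp51, the lanosterol demethylase, was at 107 ± 13.1 TPM in WT and 81.4 ± 6.24 TPM in Hom, a log2 change of -0.37 (adjusted p = 0.0602). Sc5d, which introduces the double bond at carbon 5, was at 44.1 ± 2.30 TPM in WT and 35.1 ± 2.99 TPM in Hom (-0.31, adjusted p = 0.0917). Hsd17b7, the ketoreductase that acts with Msmo1 and Nsdhl, was at -0.43 (adjusted p = 0.125). For Sc5d and Hsd17b7 every Hom library was below every WT library, as for Hmgcs1, Fdps, Msmo1 and Insig1, so this held for 6 of the 37 genes against 1.96% of all genes tested. Compared only with the WT libraries of its own batch, every Hom library was lower for 8 of the 37, Srebf2 and Scd1 being added, against 3.56% of all genes, and higher for 0, against 5.44% of all genes. Fdft1, which makes squalene, was at -0.32 and Nsdhl at -0.23, and Lss, Sqle and Dhcr7 were between -0.18 and -0.15. Tm7sf2, a sterol C14 reductase, was at 0.22 (SE 0.18) and Ebp, the sterol isomerase, at 0.02 (SE 0.15), the only enzymes of the 18 above WT in this fit. Ebp turned to -0.01 under median-ratio scaling.

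**Figure D3:**
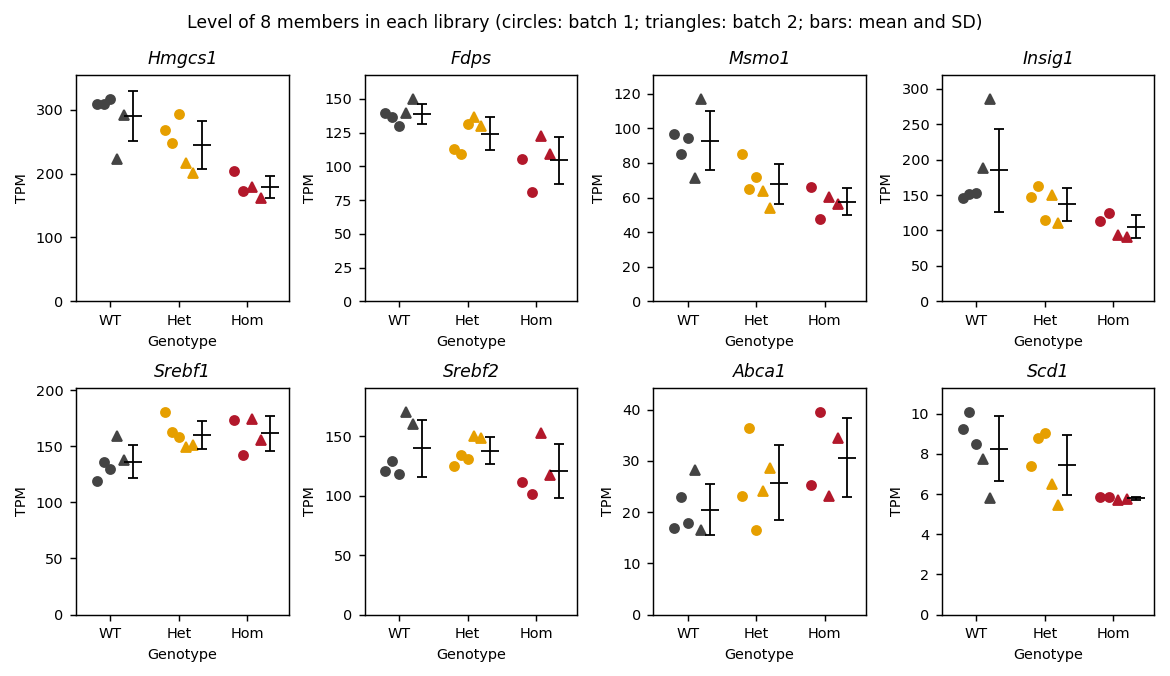
TPM of 8 genes in every library by genotype, with circles for batch 1 and triangles for batch 2, and bars of the mean and SD. The Hom libraries of Hmgcs1, Fdps, Msmo1 and Insig1 sit below all WT libraries, while those of Srebf1, Srebf2, Abca1 and Scd1 overlap with WT.

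Among the 5 SREBP regulators Insig1 fell and none rose. Insig1 (ENSMUSG00000045294, GRCm38 chr5:28071363-28078662, plus strand) is itself a target of the SREBPs. Its level was 146, 151, 153, 188 and 286 TPM in WT, 147, 163, 114, 150.5 and 111 TPM in Het, and 113, 124, 93.6 and 90.2 TPM in Hom. All Hom libraries were below all WT libraries, and WT 5 stood well above the other 4 WT libraries. Insig1 fell by 0.78 (SE 0.19, adjusted p = 0.0497). Of the 14 fits that left out 1 library, it passed only in those without Het 2 or Het 5, and without WT 5 the change was -0.58 (adjusted p = 0.0635). Its adjusted p was also past 0.05 with a pseudocount of 0.1 (0.0501), with genes above 0 TPM in 4 libraries or more (0.075), with Het 3 placed in batch 2 (0.0597) and with only the WT and Hom libraries (0.094).

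The transcripts of the SREBPs themselves did not pass the test and lay on opposite sides of WT. Srebf2 (ENSMUSG00000022463) was at 121, 129, 119, 170.4 and 161 TPM in WT, 125, 134, 131, 150.4 and 149 TPM in Het, and 111, 101, 153 and 118 TPM in Hom. WT libraries of batch 2 were higher than those of batch 1, and each Hom library was below the WT libraries of its own batch. The log2 change was -0.24 (SE 0.07, unadjusted p = 0.00606, adjusted p = 0.123). Srebf1 (ENSMUSG00000020538) was at 119, 136, 129.9, 159 and 138 TPM in WT, 180.4, 163, 158, 149 and 151 TPM in Het, and 174, 143, 175 and 156 TPM in Hom. Hom and WT overlapped, with a log2 change of 0.24 (SE 0.09, unadjusted p = 0.0178, adjusted p = 0.217).

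Insig2 and Scap differed less. Insig2 (ENSMUSG00000003721) was at 25.2, 32.1, 28.5, 29.0 and 22.5 TPM in WT, 30.2, 32.0, 26.7, 26.9 and 24.7 TPM in Het, and 27.2, 35.8, 28.6 and 30.1 TPM in Hom, a log2 change of 0.16 (SE 0.10). Scap (ENSMUSG00000032485) was at 38.9, 41.0, 38.2, 45.7 and 45.0 TPM in WT, 38.4, 47.4, 43.3, 46.0 and 52.7 TPM in Het, and 38.0, 44.3, 58.9 and 50.8 TPM in Hom, a log2 change of 0.16 (SE 0.08). The groups overlapped for both genes. Insig1 was the more abundant of the Insig transcripts in every library.

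None of the 6 genes of uptake, transport and export passed the test in Hom. The cholesterol exporter Abca1 (ENSMUSG00000015243, GRCm38 chr4:53030787-53159895, minus strand) had the largest difference. Its level was 16.8, 23.0, 17.98, 28.3 and 16.5 TPM in WT, 23.2, 36.4, 16.5, 24.1 and 28.7 TPM in Het, and 25.3, 39.5, 23.1 and 34.5 TPM in Hom. The groups overlapped, and the log2 change was 0.55 (SE 0.23, unadjusted p = 0.0321, adjusted p = 0.277). Its partner Abcg1 was at 9.71 ± 3.06 TPM in WT and 14.6 ± 2.70 TPM in Hom, a log2 change of 0.52 (SE 0.18, unadjusted p = 0.0135, adjusted p = 0.189). The highest Abca1 levels were in Hom 2 and Het 2, which also had the highest summed endothelial markers, 268 and 371 TPM. With the endothelial and astroglial marker levels as covariates the changes of Abca1 and Abcg1 were 0.34 and 0.25. The summed endothelial markers themselves differed between genotypes, with a mean of 66.5 TPM in WT and 190 TPM in Hom. Their part in the Abca1 and Abcg1 levels was not tested.

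The other 4 genes of this group were within 0.31 of WT on the log2 scale. Stard4, a sterol carrier in the cytosol, was at 53.9 ± 11.1 TPM in WT and 42.2 ± 5.46 TPM in Hom (-0.31, adjusted p = 0.394). Npc1 and Npc2, which release cholesterol from lysosomes, were at 0.09 and -0.09. Mylip, a ubiquitin ligase that lowers lipoprotein receptors was the least abundant of the 37 genes in WT, at 5.56 TPM, with a log2 change of 0.07.

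The median log2 change of the 8 fatty acid genes in Hom was -0.01, and none passed the test. Scd1 (ENSMUSG00000037071, GRCm38 chr19:44394455-44407879, minus strand), a stearoyl-CoA desaturase, differed most. Its level was 9.25, 10.1, 8.48, 7.74 and 5.79 TPM in WT, 7.42, 8.78, 9.05, 6.51 and 5.47 TPM in Het, and 5.86, 5.86, 5.70 and 5.73 TPM in Hom. Hom overlapped only with WT 5, and the log2 change was -0.40 (SE 0.12, unadjusted p = 0.00644, adjusted p = 0.127). Scd2, the desaturase that is abundant in brain, was at 334 ± 37.9 TPM in WT and 303 ± 37.8 TPM in Hom (-0.15). Fasn (-0.11), the fatty acid synthase, Acaca (0.07), the acetyl-CoA carboxylase, and Acly (-0.01), which makes cytosolic acetyl-CoA, had adjusted p-values of at least 0.775. Fads1, Fads2 and Elovl6, which desaturate and elongate fatty acids, were at 0.12, -0.02 and 0.17. The summed level of the 8 genes was 1029 to 1175 TPM in WT, 1096 to 1189.7 TPM in Het and 949 to 1238 TPM in Hom.

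Of 25 further genes of these routes, 24 passed the filter and 0 passed the test in either comparison with WT, where 3 in Hom and 0 in Het had an unadjusted p under 0.05, against 14.9% and 6.08% of all genes tested. The 3 of 24 in Hom were thus near the share over all genes. The list holds enzymes, SREBP proteases, ubiquitin ligases and their partners, liver X receptors and lipoprotein receptors. In Hom 8 were below and 16 above WT, with a median log2 change of 0.03. Lbr, which encodes a sterol C14 reductase of the inner nuclear membrane as Tm7sf2 does in the endoplasmic reticulum, was lower at an unadjusted p of 0.00646 (-0.23). Mbtps1 (0.14), the first protease that cleaves SREBPs, and Elovl5 (0.18), a fatty acid elongase, were higher at an unadjusted p under 0.05.

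In Het against WT, which asks whether loss of 1 Chd7 allele moves the same genes, none of the 37 changed, and 0.00577% of all genes did. At an unadjusted p under 0.05, 5 of the 37 were lower, against 2.88% of all genes, and 1 was higher, against 3.2% of all genes. The 5 were Msmo1 (-0.45, SE 0.14), Insig1 (-0.40, SE 0.18), Sc5d (-0.29, SE 0.08), Idi1 (-0.28, SE 0.12) and Hmgcs1 (-0.24, SE 0.08), and the 1 higher was Srebf1 (0.23, SE 0.08). Their adjusted p-values were at least 0.53. Sc5d was at 36.9, 40.8, 35.8, 37.6 and 28.9 TPM in Het and at 40.9, 45.0, 42.8, 45.1 and 46.8 TPM in WT, and was the only 1 of the 37 with every Het library below every WT library, which held for 0.583% of all genes tested. Srebf1 and Sc5d had nearly the same estimate in Het as in Hom (0.23 and 0.24, -0.29 and -0.31), whereas Mvd and Fdft1 were near WT in Het (-0.00 and -0.03) and at -0.35 and -0.32 in Hom. Both comparisons use the same WT libraries. The Het values differed between the sequencing batches. The median Het change of the 18 sterol enzymes was -0.11 in batch 1 alone, with 15 below WT, and 0.04 in batch 2 alone, with 8 below WT. Het changes of the 5 SREBP regulators ranged from -0.10 to 0.38 in batch 1 alone and from -0.84 to 0.12 in batch 2 alone.

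Compared directly with Het, 0 of the 37 genes changed in Hom, while 0.427% of all genes did. At an unadjusted p under 0.05, 8 of the 37 were lower in Hom than in Het, against 3.13% of all genes, and none was higher. The 8 were Hmgcs1, Fdps, Srebf2, Mvd, Fdft1, Dhcr7, Cyp51 and Nsdhl, and Hmgcs1 had the lowest adjusted p (-0.41, SE 0.09, adjusted p = 0.0607). With the marker covariates Hmgcs1 passed the threshold in this comparison (-0.42, adjusted p = 0.0121). Msmo1, Sc5d and Insig1 were at -0.22, -0.02 and -0.38 with unadjusted p-values of 0.162, 0.817 and 0.0684.

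Within the sequencing batches, all 18 sterol enzymes were below WT in Hom in batch 1 alone, with a median log2 change of -0.38, and 13 of 18 in batch 2 alone, with a median of -0.11. Of all genes tested in these fits, 7667 of 16417 were below WT in batch 1 and 7196 of 15917 in batch 2. In the same fits the median change in Hom was -1.12 and -0.36 for the astroglial markers, -2.01 and 0.29 for the Purkinje cell markers (4 and 2 of them tested) and 2.17 and 0.53 for the endothelial markers. It was -0.47 and 0.67 for the 9 oligodendroglial markers and -0.11 and 0.61 for the microglial markers. Of the oligodendroglial markers 7 were below WT in batch 1, and all 9 were above in batch 2, 6 at an unadjusted p under 0.05. With both batches and the endothelial and astroglial marker levels as covariates, the median Hom change of the 18 enzymes was -0.22, with 15 below WT. Their median Het change in that fit was 0.02, with 8 below WT. Of all 17325 genes, 8268 were below WT in Hom and 8751 in Het in that fit. The part of these markers in the sterol enzyme values was otherwise not tested. Hmgcs1 and Msmo1 had similar estimates in the batches, -0.73 and -0.58 for Hmgcs1 and -0.70 and -0.64 for Msmo1. Fdps was at -0.55 in batch 1 and -0.32 in batch 2. Insig1 was at -0.34 in batch 1 and -1.33 in batch 2, a difference of -0.99 (unadjusted p = 0.00411, adjusted p = 0.147). Tested as an interaction, 0 of the 37 genes differed between the batches, and 0.0115% of all genes did. At an unadjusted p under 0.05 the Hom change was higher in batch 2 for 8 of the 37 (Fdft1, Sqle, Cyp51, Tm7sf2, Nsdhl, Ebp, Fads2 and Scd2), against 8.35% of all genes, and lower for 1, Insig1, against 8.85% of all genes. Ebp was at -0.33 in batch 1 and 0.42 in batch 2, and Tm7sf2 at -0.15 and 0.70. Batch 2 held Hom 3, with the highest summed sterol enzymes of the Hom libraries, and WT 4, with the lowest of the WT libraries, and their part in the difference was not tested.

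**Figure D4:**
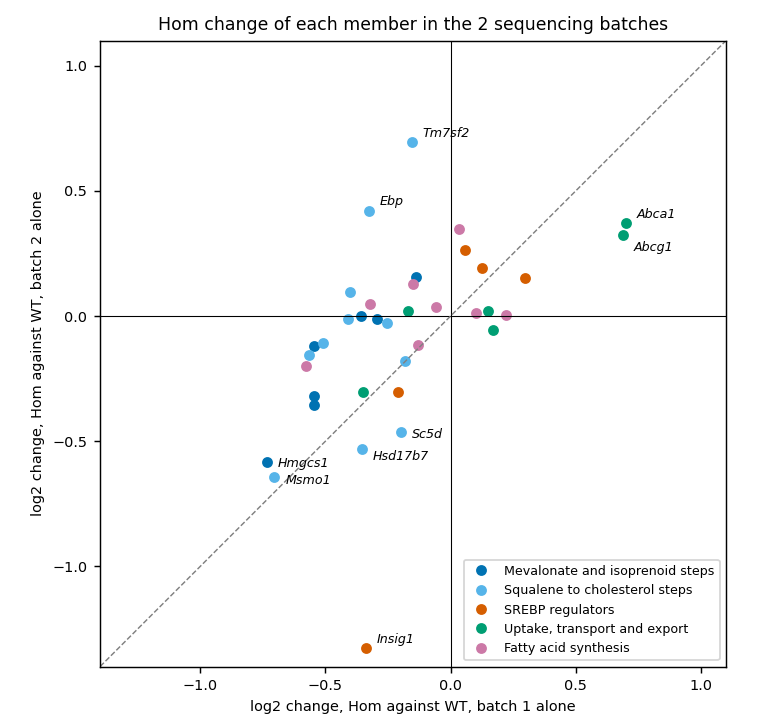
Log2 change in Hom against WT of each of the 37 genes in batch 1 alone (horizontal axis; 3 WT and 2 Hom libraries) and in batch 2 alone (vertical axis; 2 WT and 2 Hom libraries), coloured by role, with a dashed line of equal change. Hmgcs1 and Msmo1 lie near the line, Insig1 far below it, and Tm7sf2 and Ebp above it.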

How the data were processed

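The authors mapped single-end reads of total RNA libraries to the mm10 Ensembl mouse transcriptome with Bowtie 1.0.0, estimated expression with RSEM 1.2.15 at default parameters, and deposited 1 table of TPM per gene. TPM keeps no read counts, so the depth of each library is unknown and no counting error was computed; between 15863 and 16734 genes reached 1 TPM in a library. Control columns were matched to WT libraries by number, and batches follow the study's methods. No deposited columns were identical.

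Values were analysed as log2(TPM + 1), which understates changes of low genes, with limma 3.58.1 in R 4.3.3 (lmFit, eBayes with an intensity trend; genotype and batch as terms; all 14 libraries; genes reaching 1 TPM in 4 libraries or more). Symbols and positions came from GENCODE on GRCm38 for 40254 of 41381 genes. The study's Kruskal-Wallis test was run as an exact test on values with the batch removed by limma, over 252252 arrangements; its smallest possible p is 2.38e-05. The fit was tested on simulated data.

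The genes and lists were chosen with earlier results of these data known. Library values are given for genes that passed the test, the SREBP regulators, and the gene with the largest change in a role where none passed; other library values, and the promoters of Msmo1 and Insig1, were chosen after their values were seen.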

Additional observations from a re-analysis of the deposited data

Results flagged for a closer look

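Among 111 sets of libraries (37 genes in 3 genotypes), 7 held a library whose gap to the nearest other library of its genotype was large for the range of that genotype by Dixon's criterion, which chance gives in about 1 in 20 sets. WT 4 accounted for 4 of the 7. This is the WT library with the lowest sterol enzymes. It held 92.79 TPM of Acat2 (next lowest WT library 110.99 TPM), 222.66 TPM of Hmgcs1 (next 292.23 TPM), 61.43 TPM of Idi1 (next 98.94 TPM) and 84.53 TPM of Cyp51 (next 109.17 TPM). WT 5 had the highest WT level of Hsd17b7, 28.8 TPM (next 17.98 TPM), and the lowest WT level of Npc2, 64.73 TPM (next 72.71 TPM). Hom 3 had the highest Hom level of Tm7sf2, 51.05 TPM (next 33.88 TPM). Without WT 4 the genes that fell in Hom were Hmgcs1, Idi1, Fdps, Cyp51 and Msmo1, 5 of the 37. The source of these library differences was not tested.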

How the results depend on the processing

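The count of 4 genes that fell in Hom against WT became 2 without the batch term, 2 in batch 1 alone, 0 in batch 2 alone, and 1 with only the libraries of the 2 genotypes compared. Over the fits that left out 1 library it ranged from 2 to 7, with 2 when Hom 1, 2 or 4 or WT 1, 3 or 5 was left out, and 7 without Hom 3 (Hmgcs1, Mvd, Fdps, Srebf2, Cyp51, Fdft1 and Msmo1). Hmgcs1 was called in every alternative fit of Hom against WT except batch 2 alone (-0.58, adjusted p = 0.182). Other libraries, the pseudocount, the filter, the scaling, the batch of Het 3 and the marker covariates left the count within 1.5 times of 4, but Insig1 was no longer called with a pseudocount of 0.1, with genes above 0 TPM in 4 libraries or more, or with Het 3 in batch 2, and Fdps no longer with the marker covariates, where Hsd17b7 passed. In Hom against Het the count of 0 became 1 with the marker covariates and ranged from 0 to 1 when 1 library was left out, with Hmgcs1 passing without WT 4 or WT 5 and Mvd without Hom 3. No gene of the 37 passed in Het against WT, or was higher in Hom, in any alternative run. The exact Kruskal-Wallis test covers all genotypes at once. By its adjusted p, 2 of the 37 genes passed, counted without regard to direction, so it gave no count for any 1 comparison of genotypes.

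Residuals of same-numbered libraries correlated between -0.235 and 0.264 over 13 pairs. Differently numbered libraries were not compared, so these values cannot show whether replicate numbers pair the libraries. With a replicate block, 4 genes fell in Hom (Hmgcs1, Msmo1, Scd1 and Cyp51) and 0 rose, while Fdps (adjusted p = 0.0534) and Insig1 (0.102) missed the threshold. Of 31 single-gene changes followed through 27 alternatives, 773 of 837 values kept their direction and their side of the threshold, 36 missed it, 12 passed it and 16 changed direction. Tm7sf2 in Hom was -0.15 in batch 1 alone. Ebp in Hom was -0.0112 with median-ratio scaling, -0.33 in batch 1 alone and -0.001 with the replicate block, and ranged from -0.12 to 0.12 when 1 library was left out. Srebf2 in Het was 0.0792 in batch 1 alone and ranged from -0.0347 to 0.0202, and Insig2 in Het was -0.0007 with the marker covariates and ranged from -0.0151 to 0.0866, when 1 library was left out. Unknown depth limits what can be said of the least abundant genes, such as Mylip and Scd1. The causes of these shifts were not tested.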
